A study of Mus musculus with 9 samples.

Results

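The genes described here encode basic leucine zipper (bZIP) transcription factors, among them the AP-1 proteins BATF, JUN and FOS and the large Maf protein c-Maf. They are a named list of 42 mouse genes, read from the probe sets annotated with their symbols, with the probe set of the highest mean taken for each gene. A value was obtained for 40 of the 42, out of 22180 genes in all. Fosl1 and Atf1 matched only probe sets annotated with several genes and are given no value.

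Expression was measured on 9 GeneChip arrays, 3 for each of 3 genotypes of Th17 culture. Th17 cells are the helper T cells that make interleukin-17. The genotypes are labelled WT, SRG3 cKO and RORγt KO. SRG3, the product of Smarcc1, is a scaffold protein of the Swi/Snf complex, which moves nucleosomes, and RORγt is the nuclear receptor that directs the Th17 programme. In every group, CD4+CD25- T cells with low CD44 and high CD62L were sorted from mouse spleen as naive cells. They were then grown for 60 h on plates coated with antibodies against CD3 and CD28, both at 10 µg/ml. TGF-β1 at 1 ng/ml, IL-6 at 30 µg/ml as the labels write it, and antibodies against IL-4 and IFN-γ at 2 µg/ml each were present in all groups. The labels name no Cre line or promoter for the conditional knockout, and no age or strain. They call the arrays biological replicates without tying them to separate animals or dishes. The p-values therefore measure only how far these arrays spread. A lower value in a culture can mean fewer cells that express a gene or less RNA per cell, which cannot be told apart here.

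bZIP proteins bind DNA only as dimers: the leucine zipper pairs the proteins, and the basic region next to it contacts the DNA. JUN and FOS proteins form AP-1, BATF pairs with JUN proteins and binds composite sites together with IRF4, and this complex opens chromatin early in Th17 differentiation. CREB and ATF proteins bind the cyclic AMP response element, small Maf proteins pair with NRF2 and BACH proteins, and several family members are tied to the endoplasmic reticulum and its stress response.

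The sequences upstream of Batf, Creb3l2 and Batf3 are printed because these genes gave the lowest adjusted p-values of the members. Creb3l2 and Batf3 were singled out after their values were seen. Capitals mark TGACG, the 5-letter core of the cyclic AMP response element, which was chosen after the sequences were seen and was searched on both strands (TGACG or CGTCA). The sequences are RefSeq's, on GRCm38.p6, written 5′ to 3′ on the strand of the gene and ending before the gene's annotated span. They lie at chr12:85686470-85686719 on the plus strand for Batf, at chr6:37442277-37442398 on the minus strand for Creb3l2 and at chr1:191098164-191098413 on the plus strand for Batf3.

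Batf: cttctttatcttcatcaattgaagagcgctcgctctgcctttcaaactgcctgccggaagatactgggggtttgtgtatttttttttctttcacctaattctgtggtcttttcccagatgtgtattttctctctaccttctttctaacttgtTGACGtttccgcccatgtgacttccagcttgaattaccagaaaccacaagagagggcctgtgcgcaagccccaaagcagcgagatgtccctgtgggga
Creb3l2: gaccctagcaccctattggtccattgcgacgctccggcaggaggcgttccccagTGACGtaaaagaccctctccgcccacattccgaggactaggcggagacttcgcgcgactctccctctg
Batf3: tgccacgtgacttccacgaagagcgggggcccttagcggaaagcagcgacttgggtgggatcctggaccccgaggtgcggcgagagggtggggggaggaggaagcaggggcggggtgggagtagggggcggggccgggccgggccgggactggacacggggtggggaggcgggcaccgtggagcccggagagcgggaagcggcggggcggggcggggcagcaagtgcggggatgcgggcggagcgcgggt

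The core stands 98 to 94 bases before the annotated span of Batf and 68 to 64 bases before that of Creb3l2. The Creb3l2 stretch is the shorter, at 122 bases, since the transcript start of its RefSeq window lies inside the gene's annotated span. The core was not found in the Batf3 stretch. GC content was 46.4% for Batf, 62.3% for Creb3l2 and 76.0% for Batf3. RefSeq windows of 300 bases, 250 before and 50 after the start, were held for 34 of the 42 genes. TGACG stood in a window of 15 of these 34 genes (44.1%), against 23.0% of all 27025 genes with a window. Batf and Creb3l2 are among the 15, and TGACG was chosen after their sequences were seen, so this count is no test. The canonical AP-1 site TGACTCA, searched also as TGAGTCA, stood in none of the 34, against 5.95% of all genes. The full palindromic cyclic AMP response element, which contains the core, was found upstream of 2 of the 34 genes, Hlf and Maff (5.88%), against 2.03% of all genes. AGGTCA, the core letters of the site bound by ROR receptors, or TGACCT on the other strand, was found at 4 of the 34 genes (11.8%), against 18.1% of all genes. A match is a description of letters and does not show binding.

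The library labels were checked on Smarcc1, which read 8.47, 8.79 and 8.62 in SRG3 cKO arrays and 10.13, 10.32 and 10.39 in WT arrays (log2 intensity). It fell by 1.65 on the log2 scale (SE 0.09, limma adjusted p = 0.000207) and read between 10.04 and 10.19 in RORγt KO. The gene targeted in RORγt KO was not used here. All 7 measured T cell markers, Cd3e and Cd4 among them, lay above the 95th percentile of olfactory receptor genes (7.73), which serve here as a description of array background. None of 5 B cell, 10 myeloid or 3 erythroid and platelet markers did. Of 5 markers of CD8, NK and γδ T cells only Cd8b1 did. The list's mean log2 intensity was 7.05 to 7.11 in WT, 6.997 to 7.03 in SRG3 cKO and 7.17 to 7.31 in RORγt KO arrays, and Klrd1 was higher in RORγt KO than in WT (log2 difference 0.91, adjusted p = 0.0202). Its mean there, 6.87, was itself below the olfactory receptor level. The other 4 markers differed by -0.08 to 0.05 between these groups and none was called, with a list median of 0.03. The part of these cells in the values below was not tested.

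Of the 40 measured bZIP genes, 24 had a mean above the olfactory receptor level and 16 did not, while 38.6% of all genes lay above it. All 3 JUN genes, all 6 genes of the endoplasmic reticulum group and Maf lay above it. Batf was the only one of 3 BATF genes above it, with Batf2 and Batf3 at or below. Fosb and Fosl2 lay above it and Fos did not. The Fosb means were 7.72 in WT and 7.68 in RORγt KO, below the level, and 7.88 in SRG3 cKO. Crem lay above the level too, but with a WT mean of 7.63, below it, and 7.92 in SRG3 cKO and 7.90 in RORγt KO. In the C/EBP family, whose members direct myeloid and fat cell differentiation, only Cebpg of 5 lay above it, and of the clock output genes Dbp, Tef and Hlf none did. Intensities of different probe sets depend on their probes, so no gene is ranked against another. A difference in a gene at or below this level is read from a signal near background.

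**Figure D1:**
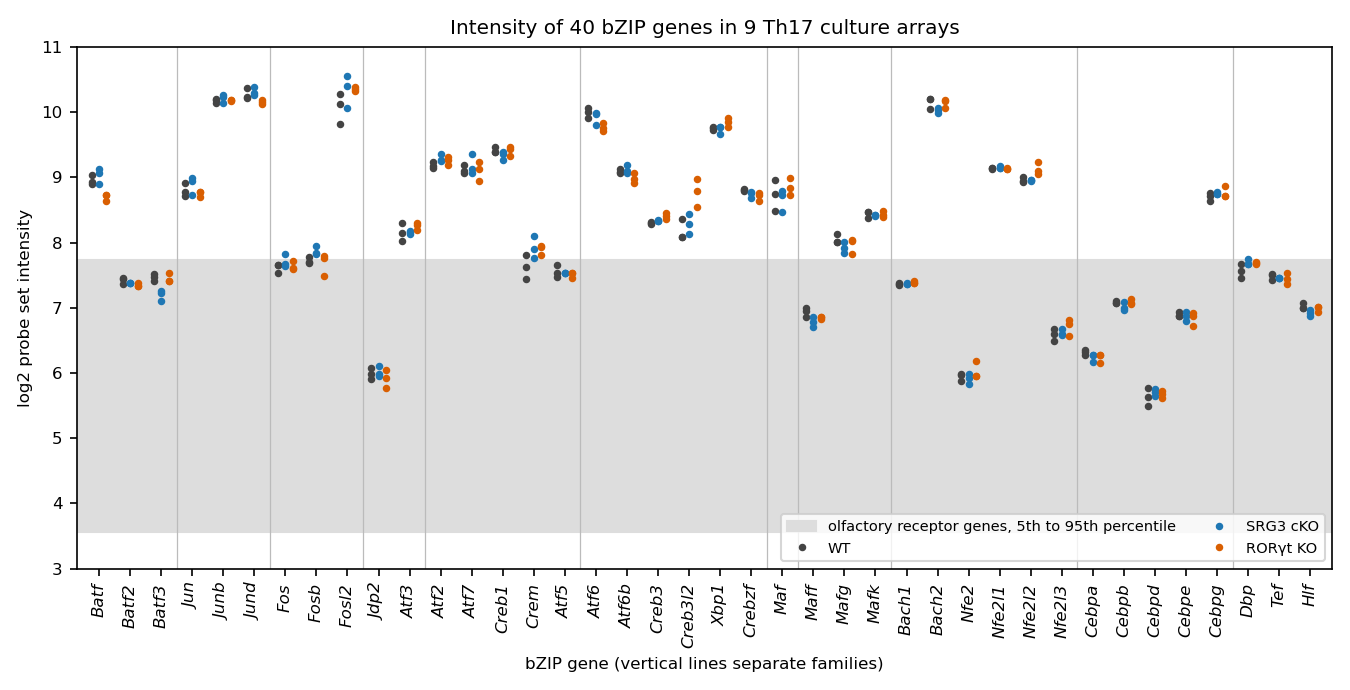
The log2 probe set intensity of 40 bZIP genes (vertical axis) in each of 9 arrays, with genes grouped by family along the horizontal axis; points are single arrays coloured by genotype, and the grey band spans the 5th to the 95th percentile of 1105 olfactory receptor genes (3.56 to 7.73). The 3 genotypes lie close together for nearly every gene, and 24 genes have a mean above the band.

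Across the list, differences between genotypes were small. No bZIP gene passed the test in SRG3 cKO against WT (0 of 40, where 0.523% of all genes were called, 0.28% higher and 0.243% lower; limma, Benjamini-Hochberg adjusted p under 0.05 over 22180 genes), and 7 had an unadjusted p under 0.05. Fitting the replicate number as a block over all arrays, RORγt KO included, called 195 genes in place of 116 in this comparison. Again none was a member. A fit of the WT and SRG3 cKO arrays alone called 13 genes. With the block, a setting chosen after seeing the data, it called 32. Neither of these fits called a member. None passed in RORγt KO against WT (0 of 40, against 1.04% of all genes, 0.694% higher and 0.343% lower), and 7 had an unadjusted p under 0.05. In SRG3 cKO against RORγt KO, 1 of 40 passed, Batf, against 1.28% of all genes (0.595% higher and 0.681% lower), with 9 at an unadjusted p under 0.05. These shares of unadjusted p compare with 11.2%, 12.7% and 11.1% of all genes in the same order. The comparisons of the knockouts with WT share the WT arrays.

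The 3 arrays of one genotype lay wholly above or below the 3 of the other for 7 members in SRG3 cKO against WT (17.5%, against 13.6% of all genes). Of these 3 were higher and 4 lower, where 7.04% and 6.56% of all genes were. They did so for 9 members in RORγt KO against WT (22.5%, against 14.3%), 5 higher and 4 lower, where 6.9% and 7.35% of all genes were. In SRG3 cKO against RORγt KO this held for 9 members (22.5%, against 14.6%), 3 higher and 6 lower, where 7.79% and 6.82% of all genes were. The median log2 difference of the members was 0.00504, -0.00799 and 0.0011 in these comparisons, where the median of all genes was -0.00606, -0.0027 and -0.00116. The median absolute difference was 0.07, 0.08 and 0.07, against 0.05 for all genes each time. The 95% interval of the difference lay within a 1.5-fold change either way for all 40 members in SRG3 cKO against WT and for 39 in each of the other comparisons, with Creb3l2 outside. It lay so for 98.8%, 98.5% and 98.7% of all genes. The members' intervals all lay within a 2-fold change.

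**Figure D2:**
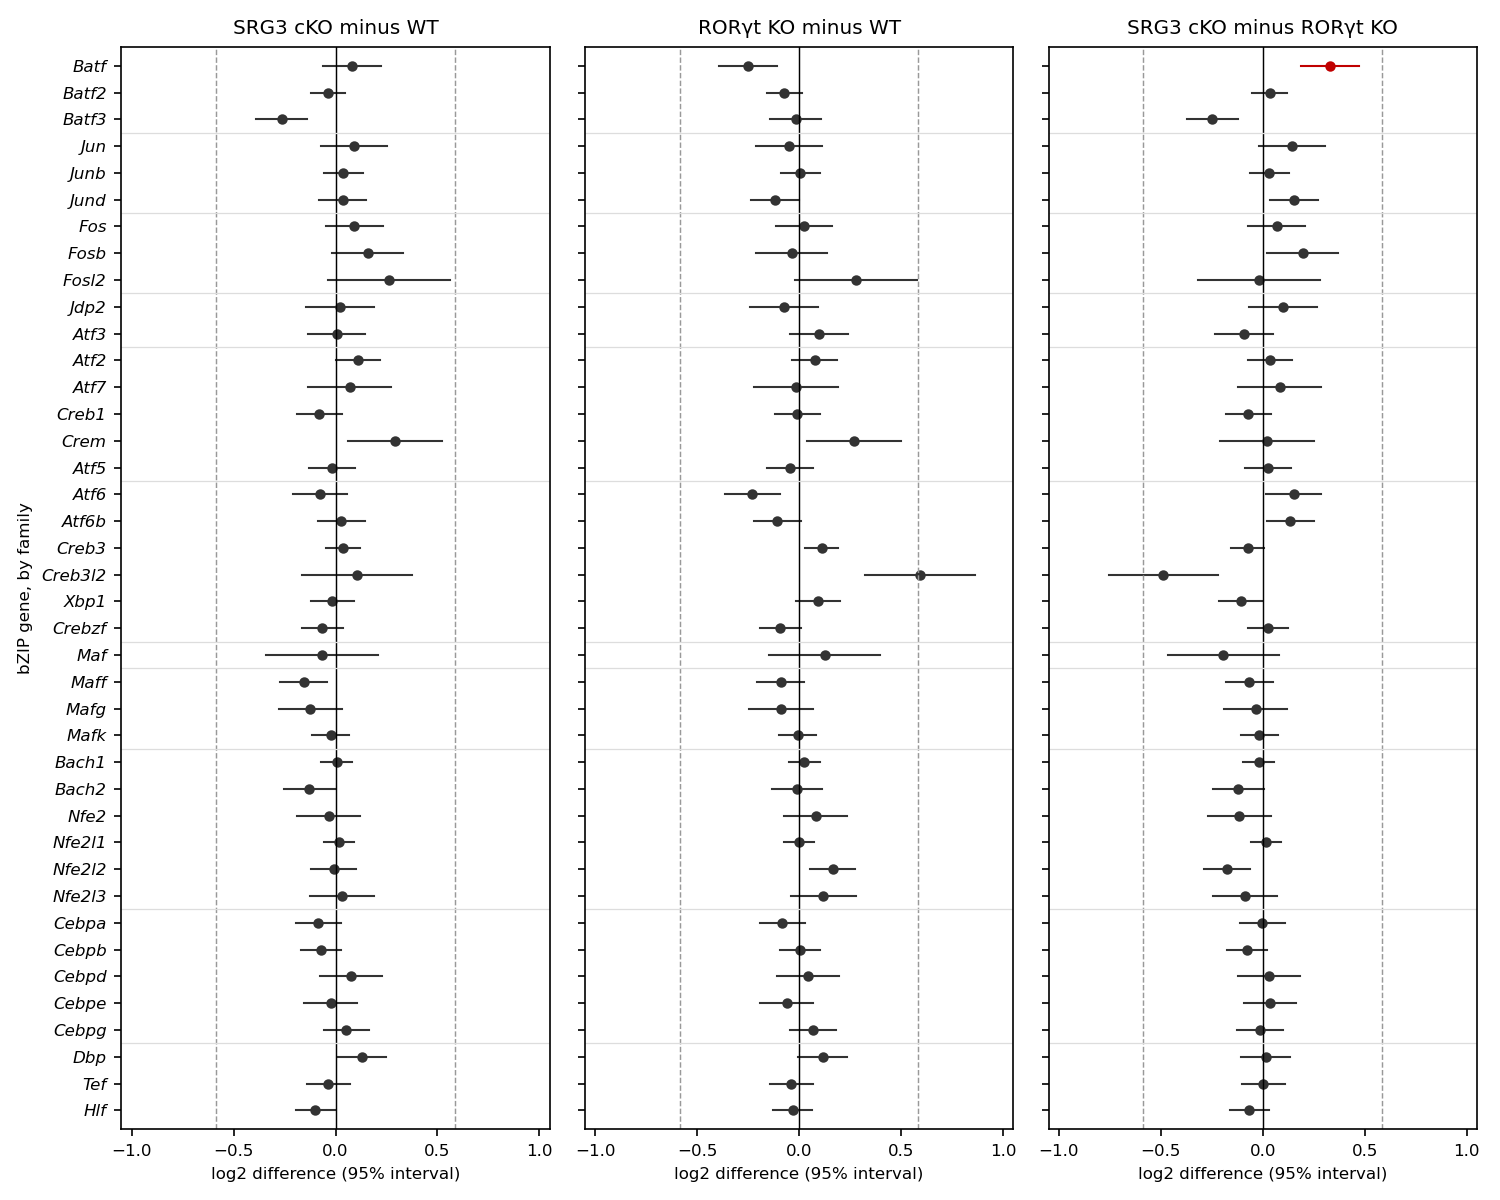
The log2 difference of each bZIP gene (point) with its 95% interval (line) in the 3 comparisons, genes in the order of their families; dashed lines mark a 1.5-fold change and red marks an adjusted p under 0.05. Batf in SRG3 cKO minus RORγt KO is the only red point, at 0.33, and only Creb3l2 reaches past a dashed line.

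Among the BATF genes, Batf was lower in RORγt KO than in SRG3 cKO. It read 8.90, 9.03 and 8.93 in WT, 8.90, 9.13 and 9.07 in SRG3 cKO and 8.74, 8.73 and 8.64 in RORγt KO (log2 intensity). All RORγt KO arrays lay below all other arrays, while WT and SRG3 cKO overlapped. SRG3 cKO exceeded RORγt KO by 0.33 (SE 0.06, 95% interval 0.19 to 0.47, adjusted p = 0.0427), a 1.26-fold difference. RORγt KO against WT gave -0.25 (adjusted p = 0.131) and SRG3 cKO against WT 0.08 (adjusted p = 0.689), neither past the threshold. The call of Batf lies close to the threshold. Of 9 fits that each left out 1 array, only the fit without SRG3 cKO replicate 1 kept it (adjusted p = 0.0182). Leaving out any of the other 8 arrays, WT included, gave adjusted p-values from 0.0599 to 0.152 with a difference of 0.28 to 0.35, and quantile normalization gave 0.31 (adjusted p = 0.0505).

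Batf3, known for its part in the development of cross-presenting dendritic cells, differed most in the other knockout. Its arrays read 7.52, 7.40 and 7.47 in WT, 7.11, 7.23 and 7.26 in SRG3 cKO and 7.54, 7.40 and 7.40 in RORγt KO. The SRG3 cKO arrays were the lowest and overlapped neither other group. The log2 difference from WT was -0.26 (SE 0.06, 95% interval -0.39 to -0.14, adjusted p = 0.0967) and that from RORγt KO -0.25 (adjusted p = 0.0829), so neither passed, and the probe set reads at the level of olfactory receptor genes. Batf2 differed by -0.04, -0.07 and 0.03 in the comparisons of SRG3 cKO and RORγt KO with WT and of the knockouts with each other.

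The JUN proteins are the partners of both FOS and BATF in AP-1. Jun read 8.77, 8.91 and 8.72 in WT, 8.74, 8.99 and 8.95 in SRG3 cKO and 8.77, 8.77 and 8.70 in RORγt KO, and the groups overlapped. Its differences from WT were 0.09 (95% interval -0.07 to 0.25) in SRG3 cKO and -0.05 (-0.21 to 0.11) in RORγt KO. Junb, the JUN gene with a known requirement in Th17 cells, read 10.20, 10.14 and 10.19 in WT, 10.24, 10.14 and 10.27 in SRG3 cKO and 10.17, 10.19 and 10.19 in RORγt KO. These groups overlapped too, and the intervals of the differences from WT ran from -0.06 to 0.13 in SRG3 cKO and from -0.09 to 0.10 in RORγt KO.

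Jund read 10.22, 10.24 and 10.38 in WT, 10.29, 10.39 and 10.26 in SRG3 cKO and 10.18, 10.13 and 10.16 in RORγt KO. Its RORγt KO arrays were below all others, as for Batf, but the differences were smaller: -0.12 from WT (adjusted p = 0.388) and 0.15 for SRG3 cKO minus RORγt KO (adjusted p = 0.289). A second Jund probe set gave 0.02 for RORγt KO minus WT and 0.01 for the knockouts, so the probe sets differ in direction against WT.

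FOS proteins bind DNA with a JUN partner. Fosl2, which encodes FRA2, read 10.28, 9.82 and 10.13 in WT, 10.55, 10.06 and 10.41 in SRG3 cKO and 10.36, 10.32 and 10.39 in RORγt KO. The RORγt KO arrays all lay above the WT arrays, while SRG3 cKO, with an SD of 0.26, overlapped both groups. Its differences from WT were 0.26 in SRG3 cKO (95% interval -0.04 to 0.56, adjusted p = 0.51) and 0.28 in RORγt KO (-0.02 to 0.58, adjusted p = 0.429). Each SRG3 cKO array exceeded the WT array of its own replicate number, by 0.27, 0.23 and 0.28, and a fit with that number as a block gave an adjusted p of 0.217, or 0.0938 within the 6 arrays compared, neither past the threshold. Without WT replicate 2 the differences were 0.13 and 0.15. They were 0.36 and 0.38 without WT replicate 1, and SRG3 cKO against WT gave 0.15 without SRG3 cKO replicate 1 and 0.40 without SRG3 cKO replicate 2. None of 17 alternative fits called either. Fosb stood higher in all SRG3 cKO arrays than in the other groups, by 0.16 over WT (adjusted p = 0.496) and 0.20 over RORγt KO (adjusted p = 0.384). Its means in WT and RORγt KO, 7.72 and 7.68, lay below the olfactory receptor level, so these differences are read from a signal near background. Fos, an immediate early gene, differed by 0.09 and 0.02 from WT in SRG3 cKO and RORγt KO.

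**Figure D3:**
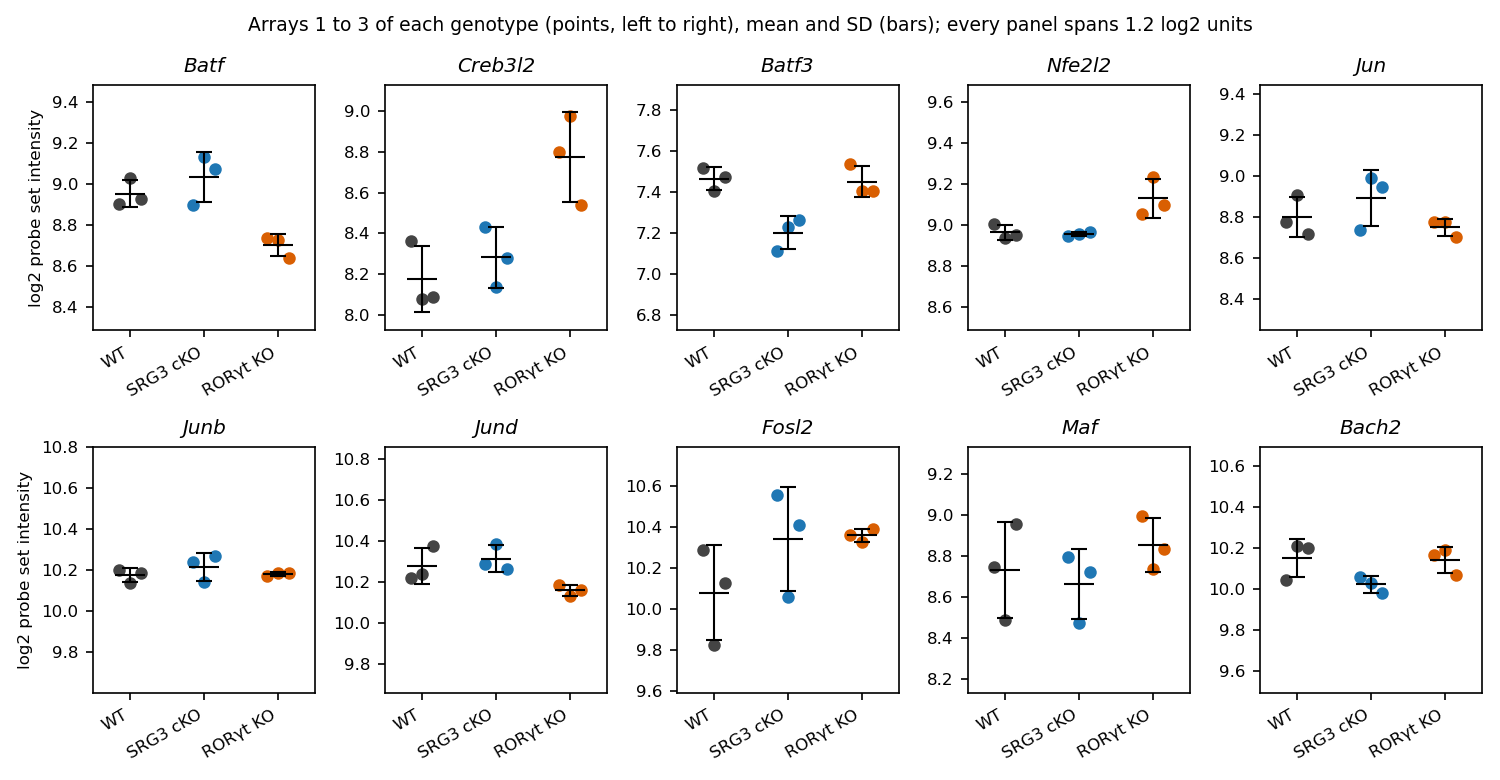
The log2 probe set intensity of 10 bZIP genes in each array (points, replicates 1 to 3 from left to right) with the mean and SD of each genotype (bars); every panel spans the same range of 1.2 log2 units. RORγt KO stands apart from WT for Batf, Creb3l2, Nfe2l2, Jund and Fosl2, SRG3 cKO stands apart from WT for Batf3, and the other panels overlap with WT.

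JDP2 and ATF3 are repressors that pair with JUN proteins. Jdp2, at or below the olfactory receptor level, differed by 0.02 in SRG3 cKO and -0.07 in RORγt KO from WT, and Atf3 by 0.005 and 0.10. In GRCm38.p6 RefSeq order, Fos, Jdp2 and Batf follow each other on chromosome 12 with no protein-coding gene between them. The difference of SRG3 cKO from RORγt KO was 0.07 for Fos, 0.10 for Jdp2 and 0.33 for Batf. Batf3 and Atf3 are also neighbours, with 1 protein-coding gene between them, and this difference was -0.25 for Batf3 and -0.09 for Atf3.

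The ATF and CREB genes, mediators of cyclic AMP and stress kinase signals, held the largest difference from WT of any member in SRG3 cKO. This was Crem, whose transcripts encode activators and the inducible repressor ICER, and which was singled out after its values were seen. It read 7.82, 7.44 and 7.63 in WT, 8.10, 7.76 and 7.90 in SRG3 cKO and 7.95, 7.93 and 7.82 in RORγt KO. WT replicate 1 reached into both knockout groups, and the differences of 0.29 (adjusted p = 0.328) and 0.27 (adjusted p = 0.318) did not pass. The WT mean of Crem, 7.63, lay below the olfactory receptor level, so its differences from WT are read from a signal near background. Within the replicate numbers, SRG3 cKO exceeded WT by 0.28, 0.32 and 0.27, and with the number as a block the adjusted p was 0.112, or 0.0901 within the 6 arrays compared, still not past the threshold. The SRG3 cKO arrays stood above WT for Atf2 (0.11, adjusted p = 0.441) and below WT for Creb1 (-0.08, adjusted p = 0.594). Atf7 and Atf5 differed from WT by 0.07 and -0.02 in SRG3 cKO and by -0.01 and -0.04 in RORγt KO.

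Creb3l2 encodes BBF2H7, a factor anchored in the endoplasmic reticulum membrane that promotes genes of the secretory pathway. It read 8.36, 8.08 and 8.09 in WT, 8.43, 8.14 and 8.28 in SRG3 cKO and 8.80, 8.98 and 8.54 in RORγt KO. Every RORγt KO array lay above every array of the other groups, and WT and SRG3 cKO overlapped. The difference between RORγt KO and WT was 0.59 (SE 0.12, 95% interval 0.32 to 0.86, adjusted p = 0.0589), or 1.51-fold, the largest of any member in any comparison, and it did not pass. It passed in 5 of 17 alternative fits, among them the fit of genes above the olfactory receptor level (adjusted p = 0.0244) and those without WT replicate 1 (0.69, adjusted p = 0.0399) or without RORγt KO replicate 3 (0.71, adjusted p = 0.0356). SRG3 cKO against RORγt KO gave -0.49 (adjusted p = 0.119) and SRG3 cKO against WT 0.11 (adjusted p = 0.786).

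Of the other genes of this group, Atf6, a sensor of unfolded proteins that was also singled out after its values were seen, read 10.01, 10.06 and 9.92 in WT and 9.84, 9.71 and 9.75 in RORγt KO. The RORγt KO arrays were lower without overlap, by -0.23 (SE 0.06, adjusted p = 0.138). Creb3, a relative of Creb3l2, and Xbp1, the factor activated by IRE1 splicing, were higher in every RORγt KO array than in any WT array, by 0.11 (adjusted p = 0.246) and 0.09 (adjusted p = 0.466). Creb3 was also higher in every SRG3 cKO array than in any WT array, by 0.04 (limma adjusted p = 0.757). Crebzf was lower than WT in every array of both knockouts, by -0.06 in SRG3 cKO (adjusted p = 0.636) and -0.09 in RORγt KO (adjusted p = 0.431). Atf6b differed by 0.03 and -0.11 from WT. Genes of this group thus lay on both sides of WT, and none passed.

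c-Maf, encoded by Maf, promotes IL-10 and IL-21 expression in helper T cells. Maf read 8.75, 8.49 and 8.95 in WT, 8.79, 8.47 and 8.72 in SRG3 cKO and 8.995, 8.74 and 8.84 in RORγt KO. The groups overlapped, and the SD of 0.23 among WT arrays was the highest of any member in that group. The differences from WT were -0.07 in SRG3 cKO (95% interval -0.34 to 0.21) and 0.12 in RORγt KO (-0.15 to 0.40). A second Maf probe set, of mean 7.08, gave -0.21 and 0.12, and -0.32 for SRG3 cKO minus RORγt KO (adjusted p = 0.254). The small Maf genes, whose proteins lack an activation domain, differed from WT by -0.16 (Maff), -0.12 (Mafg) and -0.02 (Mafk) in SRG3 cKO and by -0.09, -0.09 and -0.01 in RORγt KO.

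Bach2, a repressor of effector programmes in T cells, read 10.04, 10.21 and 10.20 in WT, 10.06, 10.03 and 9.98 in SRG3 cKO and 10.17, 10.19 and 10.07 in RORγt KO. SRG3 cKO lay below RORγt KO without overlap, and overlapped WT through WT replicate 1. The SRG3 cKO difference was -0.13 from WT (adjusted p = 0.433) and -0.12 from RORγt KO (adjusted p = 0.476). Nfe2l2, which encodes the oxidative stress factor NRF2, read 9.01, 8.93 and 8.95 in WT, 8.94, 8.95 and 8.96 in SRG3 cKO and 9.05, 9.23 and 9.10 in RORγt KO. Its RORγt KO arrays were the highest, by 0.17 over WT (SE 0.05, adjusted p = 0.205), and SRG3 cKO minus RORγt KO was -0.17 (adjusted p = 0.191). Nfe2l1, Bach1, Nfe2 and Nfe2l3 differed from WT by between -0.03 and 0.12 in both knockouts.

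The C/EBP genes differed from WT by between -0.08 and 0.08 in either knockout, with overlapping arrays for all 5. In the PAR group, Hlf was lower than WT in every SRG3 cKO array (-0.10, adjusted p = 0.433), Dbp gave 0.13 and 0.12 (adjusted p = 0.412 and 0.408) and Tef -0.03 and -0.04.

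**Figure D4:**
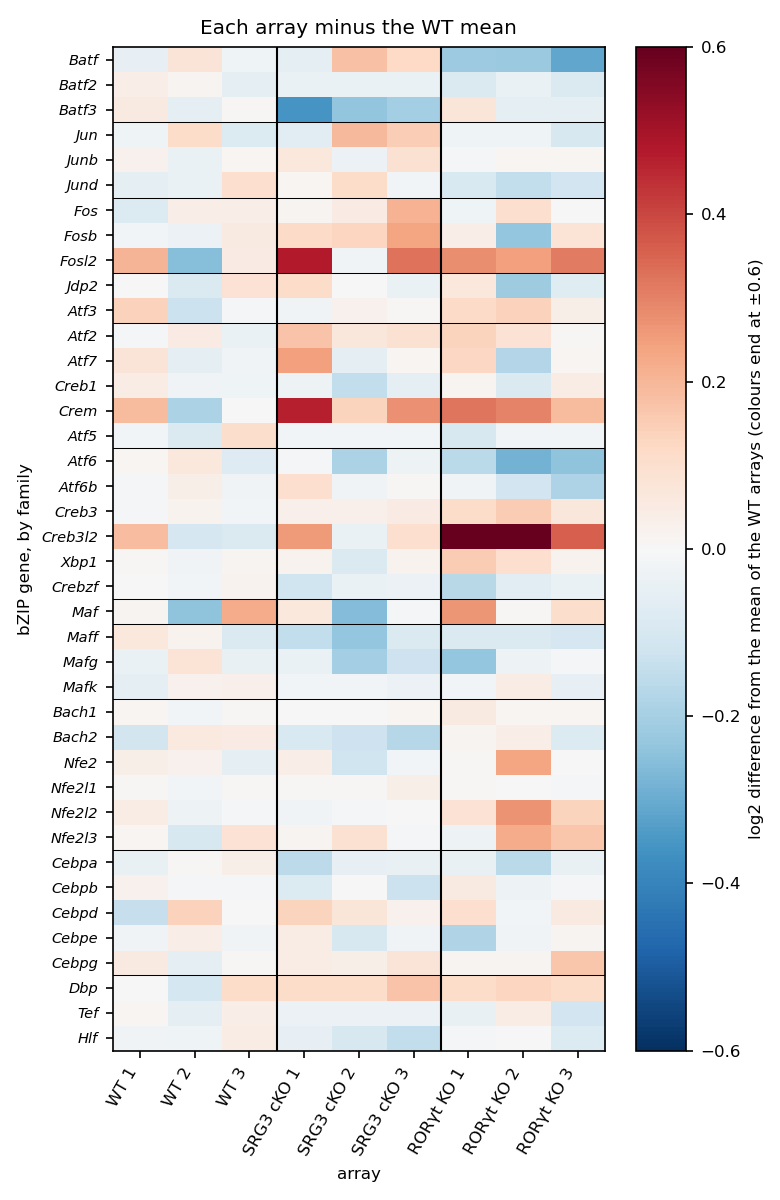
Each array minus the mean of the WT arrays for 40 bZIP genes (rows, by family) in 9 arrays (columns), as a log2 difference with colours ending at ±0.6. Creb3l2 in RORγt KO is the darkest red, Batf is blue in RORγt KO and Batf3 is blue in SRG3 cKO, while Fosl2, Crem and Maf vary within groups as well.

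Variation within groups was similar to that of other genes. The median SD of the members was 0.06, 0.06 and 0.07 in WT, SRG3 cKO and RORγt KO, and that of all genes 0.06 each. For Fosl2, Crem, Creb3l2 and Maf, replicate 2 was the lowest array in both WT and SRG3 cKO, while for Batf and Jun it was the highest in both. Among the 24 genes above the olfactory receptor level, SRG3 cKO replicate 2 was the lowest of its group for 14 and SRG3 cKO replicate 1 the highest for 13. WT replicate 2 was the lowest of its group for 13 and RORγt KO replicate 3 for 12. The part of these arrays in the differences was not tested beyond leaving each of them out and fitting the replicate number as a block.

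Genes around the bZIP proteins were read from lists drawn from general knowledge, chosen with earlier results of these data known. Of 10 further bZIP genes outside the list of 42, Nfil3, a repressor of clock and Th17 genes, was called: it read 8.47, 8.49 and 8.55 in WT, 8.71, 8.71 and 8.77 in SRG3 cKO and 8.86, 8.96 and 8.78 in RORγt KO. Both knockouts lay above WT, and RORγt KO minus WT was 0.37 (SE 0.05, adjusted p = 0.0140), a call kept in 12 of 17 alternative fits. The SRG3 cKO difference was 0.23 (adjusted p = 0.113). In RORγt KO against WT 1.04% of all genes were called.

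Of 13 kinases and partners of AP-1, 1 was higher and 1 lower in RORγt KO against WT, and 2 were higher and 1 lower in SRG3 cKO against RORγt KO. The share of all genes called was 1.04% and 1.28% in these comparisons. Mapk14, the p38α kinase, read 9.002, 9.10 and 9.13 in WT, 8.96, 9.09 and 9.05 in SRG3 cKO and 8.75, 8.81 and 8.79 in RORγt KO. RORγt KO was the lowest in every array, by -0.29 from WT (adjusted p = 0.0281), and SRG3 cKO minus RORγt KO was 0.25 (adjusted p = 0.0420). Map2k6, a kinase that activates p38, was higher in RORγt KO than in WT by 0.46 (adjusted p = 0.0202). Its mean over all arrays lay below the olfactory receptor level, so this difference is read from a signal near background. Mapk8, which encodes the JUN kinase JNK1, was higher in SRG3 cKO than in RORγt KO by 0.38 (adjusted p = 0.0343). Map2k4, an activator of JNK and p38, was lower there by -0.26 (adjusted p = 0.0285). In RORγt KO against WT the calls of Map2k6 and Mapk14 were kept in 11 of 16 and 9 of 17 alternative fits. In SRG3 cKO against RORγt KO those of Mapk14, Mapk8 and Map2k4 were kept in 7, 8 and 9 of 17. No gene of the list was called in SRG3 cKO against WT, where 0.523% of all genes were. An unadjusted limma p under 0.05 was found for 5 of the 13 there, against 11.2% of all genes. It was found for 6 in RORγt KO against WT and 6 in SRG3 cKO against RORγt KO, against 12.7% and 11.1%. The list's median difference was 0.03, 0.05 and -0.03 in SRG3 cKO against WT, RORγt KO against WT and SRG3 cKO against RORγt KO.

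Target genes of these factors were read from the same arrays. Of 13 targets of NRF2 and BACH1 and of 12 CREB targets and coactivators, none was called in any comparison, with list medians from -0.03 to 0.02 and from 0.04 to 0.06. An unadjusted limma p under 0.05 was found for 2, 2 and 5 of the former and 2, 2 and 0 of the latter in SRG3 cKO against WT, RORγt KO against WT and SRG3 cKO against RORγt KO. Of 15 targets of XBP1 and ATF6, Hyou1, a chaperone of the endoplasmic reticulum, was lower in RORγt KO than in WT by -0.32 (adjusted p = 0.0318, kept in 8 of 17 alternative fits). All SRG3 cKO arrays of Hyou1 also lay below all WT arrays, by -0.25 (limma adjusted p = 0.103), not past the threshold. The medians of this list were -0.05, -0.06 and -0.01. Of 11 clock genes, Arntl, which encodes BMAL1, was higher in SRG3 cKO than in RORγt KO by 0.35 (adjusted p = 0.0395, kept in 8 of 17). The clock list's medians were 0.06, -0.03 and 0.18. An unadjusted p under 0.05 was found for 7, 3 and 1 of the 15 XBP1 and ATF6 targets and for 0, 3 and 5 of the 11 clock genes, against 11.2%, 12.7% and 11.1% of all genes. The share of all genes called was 0.523%, 1.04% and 1.28% in the same order.

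Of 14 genes linked with BATF and c-Maf in Th17 cells, 4 were lower in SRG3 cKO than in WT and none higher, 6 were lower and 2 higher in RORγt KO, and 5 were higher and 1 lower in SRG3 cKO than in RORγt KO. Of all genes, 0.523%, 1.04% and 1.28% were called in these comparisons. The list was chosen with earlier results of these data known, so its counts are no test against these shares. Il17a, the signature Th17 cytokine, fell by 2.19 in SRG3 cKO (SE 0.22, adjusted p = 0.00478) and fell by 3.85 in RORγt KO (SE 0.22, adjusted p = 0.000143). It read 11.14, 10.09 and 10.83 in WT, 8.53, 8.30 and 8.66 in SRG3 cKO and 7.04, 6.74 and 6.72 in RORγt KO, with no overlap. Il23r and Il1r1, cytokine receptors of Th17 cells, fell by 2.63 and 1.40 in RORγt KO and were higher in SRG3 cKO than there by 1.75 and 1.37. The RORγt KO means of Il17a, Il23r and Il1r1 were 6.83, 7.61 and 7.42, below the olfactory receptor level (7.73). The RORγt KO side of these differences is therefore read from a signal near background. The list's median difference was -0.03, -0.00021 and 0.11. Of the 4 calls in SRG3 cKO against WT, Il17a was kept in 16 of 17 alternative fits, Il23r in 9 of 17, Il17f in 7 of 17 and Il22 in 8 of 15. In RORγt KO against WT, Rora was kept in 7 of 17 and Il22 in 10 of 15, while the other 6 calls were kept in all 17. Il22 averaged 3.70 in WT, 3.20 in SRG3 cKO and 3.19 in RORγt KO, far below the olfactory receptor level (7.73). The filters on dim genes leave it out, and its calls are read from a signal near background.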

How the data were processed

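RNA of 9 Th17 cultures, 3 per genotype, was labelled with biotin and hybridised to GeneChip arrays, per the labels. The deposited table holds log2 intensities of 41345 probe sets. The authors' background correction, normalization and summary method are not given in the sources used here; array medians were 7.12 to 7.14.

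A single symbol annotated 23521 probe sets, while 1814 had more than 1 symbol and 16010 had none. By gene ID, 23328 were matched to RefSeq. The probe set with the highest mean stood for each of 22180 genes. limma 3.58.1 (R 4.3.3) was fitted to all 9 arrays at once, without a filter, with Benjamini-Hochberg adjustment over all genes and a threshold of 0.05. The number of arrays limits the precision. The script was tested on simulated data.

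Same-numbered WT and SRG3 cKO arrays deviated together (correlations 0.29, 0.19 and 0.12 over genes). The numbers were taken as pairs there only in the fits named as having a replicate block. The main fit held no block, so its intervals and p-values are unpaired. For RORγt KO, replicates 1 and 3 correlated with WT at 0.21 and 0.19 and with SRG3 cKO at 0.22 and 0.14. Replicate 2 correlated at -0.0053 and -0.0054, so the RORγt KO numbers were not read as pairs, although the block over all 9 arrays includes them. Alternatives were quantile normalization, filters on dim genes, the mean of probe sets, a variance trend, the 6 arrays compared, the replicate block and leaving out each array.

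The members and gene lists were chosen with earlier results of these data known. Arrays were given per gene for members called in any comparison and for Batf, Jun, Junb, Jund, Fosl2, Maf, Bach2 and Nfe2l2, and other members by family; of each further list up to 4 called genes of lowest adjusted p. Motif counts used RefSeq windows on GRCm38.p6.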

Additional observations from a re-analysis of the deposited data

Results flagged for a closer look

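Batf is given again because the direct comparison of the knockouts passed the test: SRG3 cKO minus RORγt KO was 0.33 on the log2 scale (limma adjusted p = 0.0427), with all 3 RORγt KO arrays below all 3 SRG3 cKO arrays. Over 17 alternative fits its adjusted p ran from 0.0165 to 0.152.

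For Nfe2l2, all 3 SRG3 cKO arrays lay below the mean of the WT arrays and all 3 RORγt KO arrays above it. Whether the knockouts move this gene in opposite directions was not tested. The difference SRG3 cKO minus RORγt KO was -0.17 (limma adjusted p = 0.191), and the SRG3 cKO arrays lay within the range of the WT arrays.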

How the results depend on the processing

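Over 17 alternatives, none of 14 reversed differences of the 10 members followed singly carried a call, and 477 of their 507 values kept direction and side of the threshold. Without single arrays, SRG3 cKO against WT ranged from -0.00175 to 0.0844 for Jund, -0.188 to 0.0444 for Maf and -0.0237 to 0.012 for Nfe2l2. RORγt KO against WT ranged from -0.0597 to 0.0104 for Batf3, -0.091 to 0.00503 for Jun, -0.0136 to 0.0194 for Junb and -0.0632 to 0.0279 for Bach2, which gave 0.00684 with quantile normalization. SRG3 cKO against RORγt KO ranged from -0.125 to 0.123 for Fosl2. Of the other 30 members, 52 of 1476 values reversed, none with a call.

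Genes called in SRG3 cKO against WT, RORγt KO against WT and SRG3 cKO against RORγt KO ranged from 18 to 87, 45 to 322 and 138 to 261 without single arrays. With the 6 arrays compared they were 13, 43 and 142, and genes above the olfactory receptor level gave 211 and 362 in the comparisons with WT. The replicate block, with same-numbered correlations for RORγt KO between -0.00544 and 0.22, gave 195 and 374 in the comparisons with WT and, within the 6 arrays compared (chosen after seeing the data), 32, 63 and 131. The block changed 1 member's call, Creb3l2 in RORγt KO against WT (0.59, adjusted p = 0.0358), so that 1 member was called; within the 6 arrays compared with the block it was not called (adjusted p = 0.127). Both filters on dim genes also gave 1 member there, again Creb3l2, and fits without single arrays 0 to 1. In SRG3 cKO against RORγt KO, 0 members were called with quantile normalization or within 6 arrays, with or without the block, and 0 to 1 without single arrays. The causes were not tested, beyond fewer arrays or genes in a fit. Signal near background limits the 16 members whose mean over all arrays lay at or below the olfactory receptor level. It also limits Fosb and Crem, whose WT means lay below that level.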

Other observations

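The deposited values of many bZIP genes were identical between arrays to the last digit. For 16 of 40 members the same value stood in 3 or more arrays, as it did for 32.8% of all genes. This held for 10 of the 16 members at or below the olfactory receptor level and for 6 of the 24 above it. Among all genes it held for 40.03% of those at or below that level and 21.2% of those above it.

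Batf2 and Tef read 7.39 and 7.45 in all 3 SRG3 cKO arrays, which gives an SD of 0 in that group. Atf5 and Nfe2l1 each held 1 value in 5 arrays. Batf3 had the same value in WT replicate 2 and RORγt KO replicates 2 and 3. In such genes the spread between arrays, and the tests that rest on it, are set in part by repeated values. The cause of the repeats was not tested.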
